A study of Mus musculus with 6 samples.

Results

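The genes Runx1, Runx2 and Runx3 encode the DNA-binding Runx transcription factors of the mouse, and Cbfb encodes their shared partner subunit. These 4 genes were taken by their symbols and are 4 of the 18889 genes with at least 1 UMI in the filtered cells. All 4 were detected in every library, each with 242 to 14749 UMIs (unique molecular identifiers, 1 per captured RNA molecule). The study asked how the time at which Bcl11b is switched on steers early progenitors between T cells and innate lymphoid cells, and measured RNA by sci-RNA-seq3, where the labels name nuclear RNA and the methods describe fixed cells. Its mice were C57BL/6, 2 to 4 months old, and of both sexes combined. The WT mice carried a YFP reporter on both Bcl11b copies. The ΔTE mice carried the same reporter and, on both copies, a deletion of the distal timing enhancer of Bcl11b. Bone marrow progenitors enriched for Kit were pooled from 6 to 8 mice for each genotype and grown on OP9-DL1, a mouse stromal line that presents the Notch ligand DL1, with Flt3-L, IL-7, IL-2, SCF and IL-15 as the stated cytokines of the culture system. Sorted DN1 cells (CD44 without CD25), DN2a cells (both markers, Bcl11b reporter off) and DN2b cells (both markers, reporter on) were then grown again on OP9-DL1 for 4 days. Each genotype and start gave 1 library, 6 in all. The OP9-DL1 cells were part of the cultures, and a mesh filter before fixation was meant to hold them back.

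Runx factors bind DNA through a conserved Runt domain, and Cbfβ, which does not touch DNA itself, strengthens that binding and protects Runx proteins from degradation. Runx1 is required for definitive blood stem cells and for early T cell development, Runx3 for cytotoxic T cells and several innate lymphoid cells, and Runx2 for bone formation. The factors recognize the same short motif and can act as activators or repressors, so their relative amounts are of interest where lineages part.

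With 1 library per condition, a difference within 1 start has no replicate and was not tested, while an average over the 3 starts was. Levels are the UMIs of all filtered cells added up and scaled by the total over genes outside the mitochondrial genome (CPM), and every interval given is a 95% exact interval that covers counting error only. The libraries held 8007395 to 14555100 UMIs in all barcodes. After filtering, WT kept 10925 cells of DN1, 19489 of DN2a and 4968 of DN2b start, and ΔTE 10294, 11594 and 3401, and no barcode was shared between libraries. The cells of a library came from 3 wells of the reverse-transcription plate, and these wells split 1 culture and are not replicates. Their lowest and highest values are given as a measure of technical spread.

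Parts of the data stood apart. In WT of the DN2a start, the limit of 30% mitochondrial UMIs removed 2.59% of cells, against 26.8% to 56.6% in the other 5 libraries, and stromal markers reached 3477 CPM. Well B02 of ΔTE from the DN2a start differed from wells B01 and B03 of its own library. The mitochondrial limit removed 1.84% of its cells, against 24.5% and 48.0%. The 14 stromal markers summed to 5838 CPM in B02 and to 984 and 646 CPM in B01 and B03. Of 7970 genes with at least 100 UMIs, 34.4% were past 1.2-fold higher and 31.5% past 1.2-fold lower in B02 than in the other wells. Well B01 stood apart in another way, with Lars2, which encodes a mitochondrial leucine tRNA ligase, at 2409.7 CPM, against 120.3 to 291 CPM in all other wells. Each well was also set against the other wells of its library, over genes with at least 500 UMIs. Past 1.2-fold were 47.9% of genes for B01, 69.9% for B02 and 19.3% for B03, and 53.1%, 10.6% and 35.5% for B04, B05 and B06 of ΔTE from the DN2b start. In the other 4 libraries the wells gave 2.05% to 9.27%. Well B04 of ΔTE from the DN2b start also held more stromal marker RNA, 1163 CPM, than B05 and B06 with 346 and 435 CPM. In WT, well A03 of the DN1 start held 1352 CPM against 528 and 594 CPM in A01 and A02, and lost 15.0% of cells to the mitochondrial limit against 49.9% and 39.6%. Well A09 of the DN2b start held 1868 CPM against 611 and 1274 CPM in A07 and A08. Genotype ratios of the 4 genes over all cells of the DN2a start are given with and without B02.

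Bcl11b, a zinc finger factor of T cell commitment and the gene whose enhancer was deleted, was measured in each library first. With DN1, DN2a and DN2b cells as start, it was at 302 (287 to 319), 622 (604 to 639.6) and 1104 (1059 to 1149) CPM in WT. In ΔTE it was 115 (105 to 125), 326 (309.8 to 342) and 704 (659.8 to 751) CPM. Each ΔTE library thus lay below the WT library of the same start, by log2 −1.39 (−1.54 to −1.25), −0.93 (−1.02 to −0.85) and −0.65 (−0.76 to −0.54), with −0.75 (−0.84 to −0.66) for DN2a without B02. In both genotypes the level was lowest for the DN1 start and highest for the DN2b start. The enhancer lies outside the transcript, so these UMIs measure its output and not the deletion itself.

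Runx1 and Runx2 were lower and Runx3 was higher in ΔTE than in WT for all 3 starts, while the intervals of the Cbfb ratios included 0. Because UMIs were added over all cells, fewer cells of a type and less RNA per cell cannot be told apart here, nor can genotype and culture. Runx1 stood at 1763 (1725 to 1801), 1897 (1867 to 1928) and 2009.8 (1949.8 to 2071) CPM in WT libraries from DN1, DN2a and DN2b cells. In ΔTE it stood at 1467 (1432 to 1502), 1592 (1557 to 1628) and 1418 (1354 to 1484) CPM. All 3 WT libraries were above all 3 ΔTE libraries, but without well B02 ΔTE from DN2a cells was at 1845 (1801 to 1891) CPM, above WT from DN1 cells. ΔTE over WT gave a log2 value of −0.27 (−0.31 to −0.22) for DN1, −0.25 (−0.29 to −0.21) for DN2a and −0.50 (−0.58 to −0.42) for DN2b. The difference was past 1.2-fold for DN1, at 1.202-fold, and for DN2b, at 1.42-fold, but not for DN2a, at 1.19-fold. The DN1 value sat at that line, and reached −0.26 with TMM-scaled totals, just inside it. Leaving out well A01, A10, A12 or A02 gave −0.23, −0.24, −0.26 or −0.26, all inside the line. At most 20% mitochondrial UMIs gave −0.22, and at least 300 genes, at most 2000 genes or at most 1000 UMIs each −0.26. With a limit of 10% mitochondrial UMIs, which left 351 cells of WT and 526 of ΔTE, Runx1 from DN1 turned to 0.17.

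The wells show where the Runx1 difference lies. For DN1 the wells ranged from 1418 to 1543 CPM in ΔTE and from 1675 to 1874 CPM in WT, and for DN2b from 1188 to 1597 and from 1955 to 2092 CPM. Neither pair of ranges overlapped. For DN2a, wells B01, B02 and B03 of ΔTE gave 1869, 1003 and 1799 CPM, and the WT wells 1853 to 1941 CPM. Wells B01 and B03 were thus close to WT and B02 was far below. Without B02 the DN2a ratio was −0.04 (−0.08 to 0.00), an interval that includes 0, so the lower Runx1 of this start rested on that well. Leaving out B01, B03 or A04 instead put it past 1.2-fold, at −0.49, −0.31 or −0.27, as did all UMIs (−0.38) or at most 20% mitochondrial UMIs (−0.43) with B02 kept. Within B02, Runx1 was lower than in B01 and B03 also in cells with 0 UMIs of the stromal markers, at 1123 against 1864 CPM. The 3 WT wells of the DN2a start also lost few cells to the mitochondrial limit, 1.48% to 4.43%, without the low Runx1 of B02. Their stromal markers, at 3308 to 3680.1 CPM, were below B02 and above B01 and B03. What set B02 apart was not tested. For DN2b, leaving out well B04 gave −0.37.

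Runx3 stood at 573 (551 to 595), 440.2 (426 to 455) and 442 (414 to 472) CPM in WT libraries from DN1, DN2a and DN2b cells. In ΔTE it stood at 719 (694 to 744), 623 (601 to 645) and 535 (496 to 576) CPM. In each start the ΔTE library was the higher one, although ΔTE from the DN2b start lay below WT from the DN1 start. On the log2 scale this was 0.33 (0.25 to 0.40), 0.50 (0.43 to 0.57) and 0.27 (0.13 to 0.42), or 1.25-fold, 1.42-fold and 1.21-fold. The ΔTE wells ranged from 707 to 740.3 CPM for DN1 and from 476 to 687 CPM for DN2a, above the WT wells at 505 to 614 and 425 to 466 CPM. For DN2b the ranges overlapped, 499 to 577 CPM in ΔTE and 395 to 556 CPM in WT, and leaving out well A09 or B05 gave 0.13 or 0.22, inside 1.2-fold. The DN2b value was inside 1.2-fold as well on all UMIs (0.26), with no limit or at most 20% mitochondrial UMIs (0.21 and 0.21), with at most 1000 UMIs (0.18), without stromal UMIs (0.25) and as a mean over cells (0.21). Without well A02 of WT, the DN1 ratio was 0.26, just inside 1.2-fold. With at most 10% mitochondrial UMIs, which left 172 cells of WT and 100 of ΔTE, Runx3 from DN2b turned to −0.76. The DN2a difference was larger without B02, at 0.64 (0.56 to 0.72).

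Runx2, the Runx factor with the fewest UMIs, stood at 280.0 (265 to 296), 229.9 (219 to 241) and 225 (205 to 246) CPM in WT libraries from DN1, DN2a and DN2b cells. In ΔTE it stood at 211 (198 to 225), 175 (164 to 187) and 184 (162 to 209) CPM. Again every WT library was above every ΔTE library. In log2 these differences were −0.40 (−0.53 to −0.28), −0.39 (−0.51 to −0.27) and −0.29 (−0.52 to −0.06), and the DN2a value without B02 was −0.38 (−0.51 to −0.24). Without a mitochondrial limit the DN2a value was −0.15, inside 1.2-fold. Wells did not overlap for DN1 (195 to 223 CPM in ΔTE, 272 to 294 CPM in WT) or DN2a (172 to 179 and 223 to 235 CPM). They did for DN2b (164 to 208 and 171 to 248 CPM), where leaving out well B04, A08 or A09 put the ratio at −0.20, −0.22 or −0.24, inside 1.2-fold. At most 20% mitochondrial UMIs, at least 300 genes or a mean over cells each put the DN2b value at −0.25, also inside. Supt3, which encodes a subunit of the SAGA coactivator complex, overlaps Runx2 on the opposite strand. Whether the counting used strand is not given in the sources used here, so reads of the shared stretch may have been counted for either gene. Supt3 itself was at log2 −0.12 (−0.23 to 0.00) in DN1, 0.05 (−0.06 to 0.15) in DN2a and −0.11 (−0.33 to 0.11) in DN2b, and at 0.26 (0.14 to 0.37) in DN2a without B02, opposite to Runx2.

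Cbfb, the common subunit, was the steadiest of the 4 genes. Its level was 249.9 (236 to 265), 239 (228 to 250.1) and 255 (234 to 278) CPM in WT libraries from DN1, DN2a and DN2b cells. In ΔTE it was 234 (219.9 to 248), 245 (232 to 259) and 256 (229 to 284) CPM. The 6 libraries overlapped, and the intervals of log2 −0.10 (−0.22 to 0.02), 0.04 (−0.07 to 0.14) and 0.00 (−0.20 to 0.20) all included 0. The DN2a ratio was 0.11 (−0.01 to 0.23) without B02 and −0.09 on the total of all UMIs, so no direction can be given for Cbfb. Leaving out well B01 also turned it, to −0.05.

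**Figure D1:**
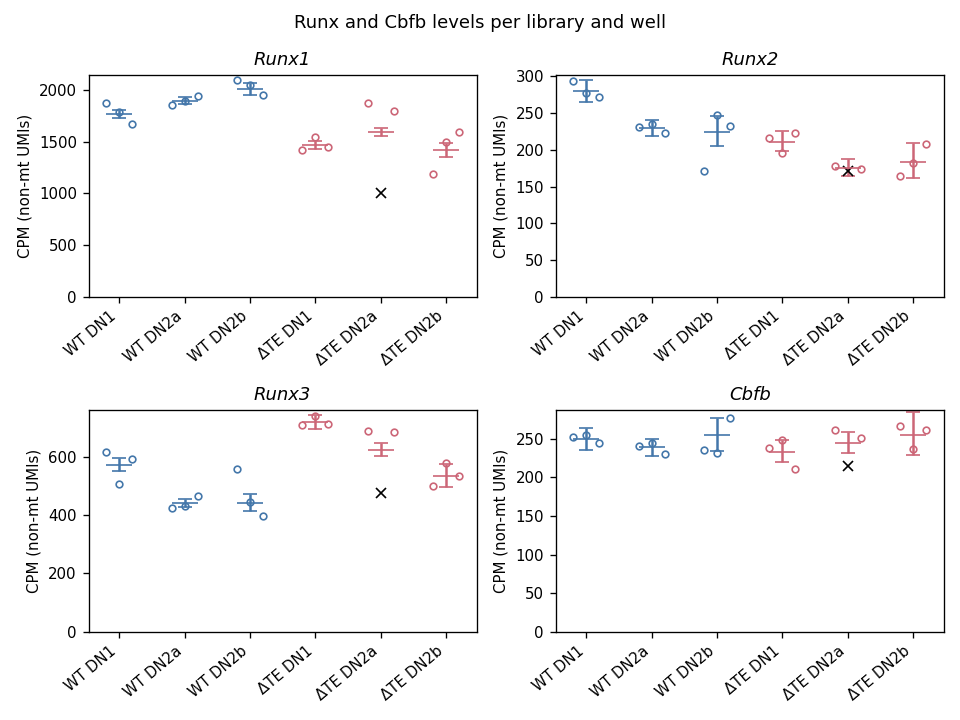
Levels of Runx1, Runx2, Runx3 and Cbfb (CPM of non-mitochondrial UMIs, vertical axes from 0) in the 6 libraries, WT in blue and ΔTE in rose, with dashes and 95% exact Poisson intervals for libraries, open circles for reverse-transcription wells and a black cross for well B02. Runx1 and Runx2 sit lower and Runx3 higher in the ΔTE library of each start (from DN1 cells, 1467 against 1763, 211 against 280.0 and 719 against 573 CPM), and Cbfb is close to level (234 against 249.9 CPM). From DN2a cells the Runx1 difference rests on B02, with 1845 against 1897 CPM when it is left out.

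An average difference between ΔTE and WT over the 3 starts was tested after these values were seen. The 6 library sums were fitted on start and genotype, with edgeR's quasi-likelihood test and Benjamini-Hochberg adjustment over 12048 genes. A genotype effect that differs between starts counts as error in this fit, and 2 residual degrees of freedom per gene are backed by the spread of all genes. Runx1 was lower in ΔTE at log2 −0.33 (standard error 0.0704, adjusted p 0.000865), and Runx2 at −0.37 (0.0691, adjusted p 0.000184). Runx3 was higher at 0.38 (0.0687, adjusted p 0.000114). Cbfb, at −0.02 (0.0684, adjusted p 0.948), was not called. So 1 member was called higher, where 3.08% of genes were, and 2 lower, where 4.17% were. Without well B02, Runx1 was no longer called, at −0.25 with an adjusted p of 0.412. Runx2 and Runx3 were still called, at adjusted p 0.0346 and 0.0245. The study names pooled progenitors of 6 to 8 mice per genotype, so the 3 libraries of a genotype share their source and are not independent. The p values thus set the difference between the WT and ΔTE libraries against a spread over starts that is mostly that of all genes. All genes weighed as 41.1 degrees of freedom in it, against 2 of the gene itself. The p values do not cover the spread between pools of mice. A difference between pools or cultures that the 3 starts share cannot be told apart from genotype.

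The members are read here against all genes with at least 100 UMIs over the compared libraries. For DN1, 1 member was past 1.2-fold higher, where 8.37% of 9076 genes were, and 2 members past 1.2-fold lower, where 8.7% were. For DN2a, 1 was higher, where 8.83% of 9899 genes were, and 1 lower, where 15.2% were. On the total of all UMIs, 14.04% of the genes past 1.2-fold in the DN2a start were higher, against 36.8% on non-mitochondrial UMIs, and the median log2 ratio was −0.14. For DN2b, 1 was higher, where 16.5% of 6812 genes were, and 2 lower, where 15.4% were. Without B02, the DN2a start had 10.7% of 9670 genes higher and 22.6% lower. All 4 members also pass a minimum of 500 UMIs, where smaller shares of genes are past 1.2-fold, 3.69% higher and 3.40% lower for DN1, 6.01% higher and 7.70% lower for DN2a and 11.5% higher and 10.1% lower for DN2b.

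In size, the Runx3 ratio was above those of 94.9%, 97.5% and 84.5% of these genes for DN1, DN2a and DN2b, and of 98.3% for DN2a without B02. The Runx1 ratio was above 8.61%, 15.7% and 4.65%, and above 49.2% for DN2a without B02. The Runx2 ratio was above 3.67%, 9.20% and 13.7%, and above 15.4% for DN2a without B02. The median log2 ratio of all genes was 0.00 for DN1, −0.01 for DN2a and 0.01 for DN2b. Wells without overlap were counted likewise. For DN1, Runx3 was higher in all wells, as were 8.97% of genes, and Runx1 and Runx2 were lower, as were 8.55%. For DN2a, Runx3 was higher, as were 5.94%, and Runx2 lower, as were 7.6%. For DN2b, Runx1 was lower in all wells, as were 8.98%, and no member was higher in all, where 8.63% of genes were. The Runx1, Runx2 and Runx3 directions were the same with all UMIs and with TMM-scaled totals. The Cbfb direction turned with all UMIs in the DN2a start and, from 0.00 to −0.02, in the DN2b start.

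The balance among the 3 factors does not depend on scaling. Runx3 made up 21.9% (21.2 to 22.6), 17.1% (16.6 to 17.7) and 16.5% (15.6 to 17.5) of the UMIs of Runx1, Runx2 and Runx3 in WT libraries from DN1, DN2a and DN2b cells. In ΔTE its share was 29.99% (29.1 to 30.9), 26.1% (25.3 to 26.9) and 25.0% (23.4 to 26.7). All 3 ΔTE libraries were above all 3 WT libraries, and in each start all ΔTE wells were above all WT wells. The wells ran from 29.8% to 30.2% against 19.7% to 23.4% for DN1, from 25.1% to 28.8% against 16.8% to 17.7% for DN2a, and from 22.8% to 27.0% against 15.3% to 19.7% for DN2b. Well B02, low in both Runx1 and Runx3, had the highest Runx3 share of its library. Runx1 held 67.4% (66.6 to 68.2), 73.9% (73.3 to 74.5) and 75.1% (73.9 to 76.2) in WT libraries, and 61.2% (60.3 to 62.1), 66.6% (65.7 to 67.5) and 66.4% (64.6 to 68.1) in ΔTE. Runx2 held 7.34% to 10.7% in the 6 libraries.

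Set directly against Runx1, Runx3 had 0.325, 0.232 and 0.220 UMIs per Runx1 UMI in WT and 0.490, 0.391 and 0.377 in ΔTE. The log2 of ΔTE over WT for these ratios was 0.59 (0.50 to 0.68) for DN1, 0.75 (0.67 to 0.83) for DN2a and 0.78 (0.61 to 0.94) for DN2b, and 0.68 for DN2a without B02. It was above 0 in every alternative setting run for it, down to 0.21 for DN2a cells with a Bcl11b UMI. It was not run within the marker classes given below. In the T class of DN2a, Runx3 and Runx1 were at log2 0.16 (−0.11 to 0.44) and 0.04 (−0.09 to 0.17). In the stromal class of DN1 the order was reversed, at −0.12 (−0.80 to 0.53) and 0.26 (−0.09 to 0.61). In the ILC or NK class, Runx3 was above Runx1 in each start. The comparison of Runx3 with Runx1 was added after the levels were seen, so it describes the same counts in another form.

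**Figure D2:**
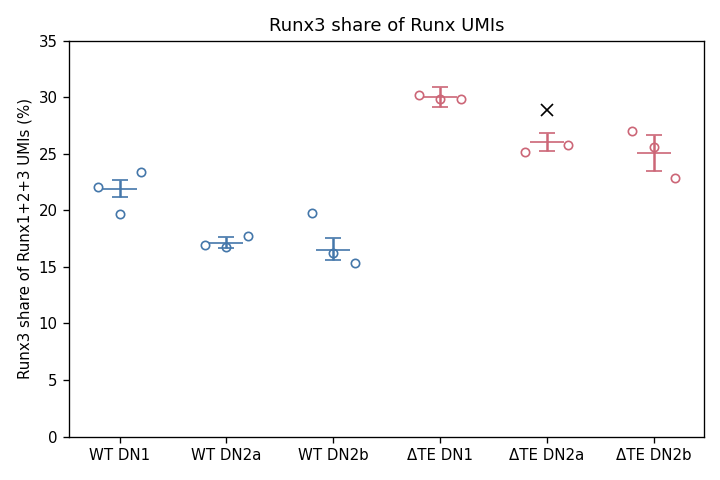
Share of Runx3 in the UMIs of Runx1, Runx2 and Runx3 (percent, vertical axis from 0) in the 6 libraries, WT in blue and ΔTE in rose, with dashes and 95% Clopper-Pearson intervals for libraries, open circles for wells and a black cross for well B02. In each start the ΔTE wells lie above the WT wells, as from DN2a cells with 25.1% to 28.8% against 16.8% to 17.7%.

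The DN2b start was also set against the DN1 start within each genotype. From the DN1 to the DN2b start, Runx1 was higher in WT, by a log2 ratio of 0.19 (0.14 to 0.24), with wells at 1955 to 2092 against 1675 to 1874 CPM. Runx1 was the 1 member higher in all DN2b wells, as were 15.5% of genes, and Runx2 the 1 lower in all, as were 21.4%. In ΔTE the ratio was −0.05 (−0.12 to 0.03), and the wells overlapped, with 0.08 when well B04 was left out. In ΔTE, Runx3 was the 1 member lower in all DN2b wells, as were 20.9% of genes, and 0 were higher, where 15.1% of genes were. Whether the genotypes differ in this step was not tested. Runx3 was lower for the DN2b start in both genotypes, at −0.37 (−0.48 to −0.27) in WT and −0.43 (−0.55 to −0.31) in ΔTE. Runx2 was at −0.32 (−0.47 to −0.16) in WT and −0.20 (−0.41 to 0.00) in ΔTE. Cbfb was at 0.03 (−0.12 to 0.18) and 0.13 (−0.05 to 0.31). In WT, 2 members, Runx2 and Runx3, were past 1.2-fold lower, where 24.7% of 8543 genes were, and 0 higher, where 18.4% were. In ΔTE, Runx3 was the 1 member past 1.2-fold lower, where 27.7% of 8215 genes were, and 0 were higher, where 20.9% were. Leaving out well A07 or A09 of WT put Runx2 at −0.23 or Runx3 at −0.23, inside the line. Runx2 of WT was also inside it with no mitochondrial limit, at −0.18, and with at most 10%, at −0.26, as was Runx3 of WT with at most 10%, at −0.21. Runx2 of ΔTE was past it with B06 left out, at −0.30, with at most 1000 UMIs, at −0.27, and as a mean over cells, at −0.27. The Runx2 ratio of WT was above those of 20.2% of genes, and the Runx3 ratio above 15.7% in WT and 16.04% in ΔTE. At a minimum of 500 UMIs, 15.0% higher and 22.2% lower were past 1.2-fold in WT, and 18.0% higher and 25.2% lower in ΔTE. The WT and ΔTE comparisons of starts reuse the libraries of the genotype comparisons.

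Levels between genes were compared per length of gene. Runx1 (ENSMUSG00000022952) spans chromosome 16 from 92601466 to 92826149 on the minus strand, and Runx2 (ENSMUSG00000039153) chromosome 17 from 44495987 to 44814797 on the minus strand. Runx3 (ENSMUSG00000070691) spans chromosome 4 from 135120652 to 135177990 and Cbfb (ENSMUSG00000031885) chromosome 8 from 105170674 to 105217989, both on the plus strand, on build GRCm38. Per kb of exon, the levels were Runx1 (118 to 167 CPM per kb over the 6 libraries), Runx3 (87.99 to 144), Cbfb (67.2 to 73.4) and Runx2 (19.8 to 31.7). Runx1 was above Runx3 in 5 of 6 libraries, while in ΔTE of the DN1 start Runx3 was above, at 144 against 122. Per kb of exon, both were above Cbfb, and Cbfb above Runx2, in every library. These orders rest on the division by length, while a UMI counts 1 captured molecule. On CPM alone, Runx1 was above Runx3 in every library, with 1467 against 719 CPM in ΔTE of the DN1 start. Runx2 was then above Cbfb in WT of the DN1 start, at 280.0 against 249.9 CPM. Reads of introns may have been counted too, and per kb of gene body Runx3 (7.68 to 12.5 CPM per kb) was above Runx1 (6.31 to 8.94) in WT of the DN1 start and in all 3 ΔTE libraries, and below it in the other WT libraries. Cbfb (4.94 to 5.40) and Runx2 (0.550 to 0.878) stayed below both.

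The cultures held several kinds of cell, and marker lists were used to sort them roughly. A cell entered a class with at least 2 UMIs over the markers of that class and more than over any other. This gave 3851 cells with T cell markers, 11178 with ILC or NK cell markers, 854 with myeloid and 3530 with stromal markers, 2563 with markers of mast cells, basophils or megakaryocytes, and 18 with B cell markers. The remaining 38677 of 60671 cells (63.7%) were in no class. The counts behind this gate are sparse. Of the ILC or NK cells 5736 and of the T cells 2112 had exactly 2 UMIs, and 16440 and 10167 cells had 1. All markers of the lists were in the count tables. Gzma gave 51.8% of the ILC or NK UMIs, Cd3g 26.6% of the T cell UMIs, Mpo 27.1% of the myeloid UMIs and Cpa3 84.6% of the UMIs of the mast cell list, which is called the Cpa3 class here. In stroma, Bgn led with 17.5%. Of the 12 T cell markers Cd8b1, of the 12 of the Cpa3 list Fcer1a and of the 8 B cell markers Ms4a1 had 0 UMIs in the filtered cells, and in each class the median over cells of any other class's markers was 0.

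Stroma was the class that set the Runx genes apart. Stromal cells had Runx2 at 414 (385 to 444) CPM against 216 (209 to 224) CPM in cells of no class, a log2 ratio of 0.94 (0.82 to 1.05). They had Runx1 at 809 (768 to 850.4) against 1837 (1815 to 1859) CPM, or −1.18 (−1.26 to −1.11). Runx3 was at 169 (151 to 189) against 581 (568 to 593) CPM, or −1.78 (−1.95 to −1.62). Each of these directions held in 6 of 6 libraries. Cbfb was also lower in stroma, at 159.8 (142 to 179) against 251 (243 to 259) CPM. Among blood cells, Runx1 was highest in the T class at 2199 (2130.3 to 2269) CPM, above cells of no class in 6 of 6 libraries, and lower in the ILC or NK class at 1600.2 (1567 to 1634) CPM, also in 6 of 6. The interval of the library ratio left out 0 in 4 of 6 for the T class and 5 of 6 for the ILC or NK class. Runx3 was at 479 (447 to 512) CPM in the T class (below cells of no class in 4 of 6 libraries), 617 (596 to 638) CPM in the ILC or NK class (above in 5 of 6) and 664 (621 to 709.8) CPM in the Cpa3 class (above in 5 of 6). These Runx3 sums mix the libraries, and within libraries the interval left out 0 in only 2 for the T class and 1 each for the ILC or NK and Cpa3 classes. In WT from DN1, DN2a and DN2b cells, Runx3 of the ILC or NK class was at 587, 496 and 475 CPM. Cells of no class were at 590.5, 484 and 473 CPM. In ΔTE, Runx3 of the ILC or NK class was at 742, 687 and 634 CPM, beside 713, 659 and 494 CPM in cells of no class. Summed over libraries, Cbfb in the T, ILC or NK, myeloid and Cpa3 classes did not differ from cells of no class beyond counting error. Within libraries, the Cbfb interval of the Cpa3 class left out 0 in 1.

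**Figure D3:**
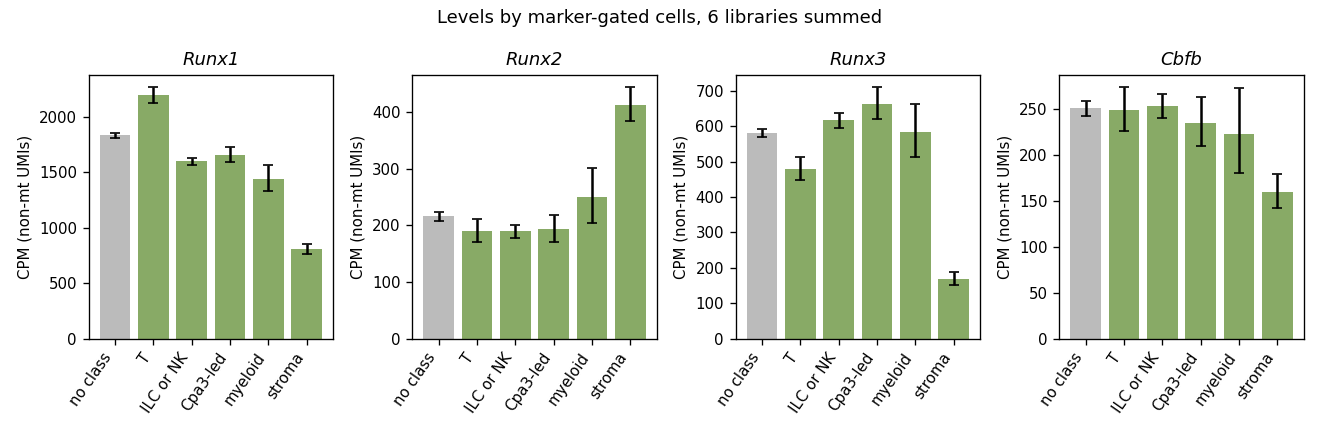
Levels of the 4 genes (CPM of non-mitochondrial UMIs, vertical axes from 0) in marker-gated cells of the 6 libraries summed, with 95% exact Poisson intervals and grey bars for cells in no class. Stromal cells show high Runx2 (414 CPM) and low Runx1 (809 CPM) and Runx3 (169 CPM), and the T class shows the highest Runx1 (2199 CPM).

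The classes also differed in size between libraries. Stromal markers summed to 895, 3477 and 1434 CPM in WT and to 518, 2363 and 674 CPM in ΔTE, lower in ΔTE for each start, like Runx2. The stromal class held 5.83%, 23.8% and 9.66% of Runx2 UMIs in WT and 5.68%, 18.2% and 2.89% in ΔTE. Without B02, the ΔTE library of the DN2a start had 869 CPM of stromal markers and 8.93% of its Runx2 UMIs in that class. ILC or NK markers summed to 1615, 1943 and 1829 CPM in WT and to 2009.8, 2838 and 3224 CPM in ΔTE, higher in ΔTE for each start, like Runx3. T cell markers were at 416, 1113 and 2003 CPM in WT and 375, 1009.7 and 2075 CPM in ΔTE. The Cpa3 list, like Runx3, was higher in ΔTE, at 674, 757 and 603 CPM in WT and 854, 1059 and 706 CPM in ΔTE. Progenitor markers, like Runx1, were lower in ΔTE, at 1137, 675 and 556 CPM in WT and 1070.2, 649 and 475 CPM in ΔTE. Without B02, ΔTE of the DN2a start had 2608 CPM of ILC or NK, 1065 of T cell, 1073 of Cpa3 list and 666 of progenitor markers. The part of these lists in the Runx results was not tested.

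The genotype ratios were therefore also taken within classes. In cells of no class, Runx1 was at log2 −0.25 (−0.31 to −0.20) from DN1, −0.27 (−0.33 to −0.22) from DN2a and −0.43 (−0.54 to −0.32) from DN2b cells. Runx3 was at 0.27 (0.18 to 0.36), 0.45 (0.35 to 0.54) and 0.06 (−0.14 to 0.27). Runx2 was at −0.39 (−0.54 to −0.24), −0.28 (−0.45 to −0.10) and −0.14 (−0.47 to 0.18). With all wells the Runx1 ratios were thus close to those of all cells. For the DN2b start, the Runx2 and Runx3 ratios were smaller than the −0.29 and 0.27 of all cells, and their intervals included 0. Without B02, cells of no class from the DN2a start had −0.12 (−0.17 to −0.06) for Runx1, −0.15 (−0.34 to 0.03) for Runx2 and 0.56 (0.45 to 0.66) for Runx3. In cells with 0 stromal marker UMIs, Runx2 was at −0.43, −0.40 and −0.23.

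In the ILC or NK class, Runx1 was at −0.35 (−0.46 to −0.25), −0.36 (−0.44 to −0.28) and −0.77 (−0.96 to −0.59). Runx3 was at 0.34 (0.17 to 0.50), 0.47 (0.33 to 0.61) and 0.42 (0.13 to 0.70). Without B02 the DN2a values of this class were −0.17 (−0.25 to −0.08) for Runx1, inside 1.2-fold, and 0.51 (0.36 to 0.67) for Runx3. Runx2 in this class was at −0.54 (−0.83 to −0.25), −0.42 (−0.69 to −0.16) and −0.28 (−0.75 to 0.19), and at −0.31 (−0.60 to −0.03) for DN2a without B02. Cbfb was at −0.35 (−0.61 to −0.08) in DN1 of this class, while every other Cbfb interval within a class included 0. In the T class, Runx1 was at −0.54 (−0.83 to −0.26), 0.04 (−0.09 to 0.17) and −0.39 (−0.56 to −0.21), so DN2a did not share the direction, nor at 0.14 (0.00 to 0.28) without B02. Runx3 in the T class was at 0.29 (−0.29 to 0.87), 0.16 (−0.11 to 0.44) and 0.37 (−0.0009 to 0.73), and at 0.14 (−0.16 to 0.43) for DN2a without B02. These Runx3 values were all above 0, but their intervals all included 0, on 48 to 301 UMIs per library. Runx2 in the T class was at −0.72 (−1.66 to 0.15), −1.03 (−1.63 to −0.47) and −0.29 (−0.90 to 0.30), and at −1.08 (−1.75 to −0.47) for DN2a without B02, on 16 to 129 UMIs per library. In the Cpa3 class, Runx1 was at −0.46 (−0.67 to −0.25), −0.34 (−0.50 to −0.17) and −0.25 (−0.72 to 0.20), and at −0.26 (−0.43 to −0.08) for DN2a without B02. Runx2 was at −0.65 (−1.27 to −0.04), −0.40 (−0.94 to 0.13) and −1.27 (−2.85 to 0.06), and at −0.37 (−0.95 to 0.19) for DN2a without B02. In the same class, Runx3 was at 0.47 (0.17 to 0.77), 0.67 (0.38 to 0.96) and 0.08 (−0.66 to 0.80), and 0.77 (0.46 to 1.07) for DN2a without B02. In the stromal class, Runx1 was at 0.26 (−0.09 to 0.61), −0.58 (−0.79 to −0.36) and −0.81 (−1.74 to 0.01), and at −0.03 (−0.35 to 0.28) for DN2a without B02. Runx2 in stroma had intervals that all included 0, at 0.29 (−0.24 to 0.81), −0.02 (−0.29 to 0.25) and −0.81 (−2.20 to 0.35), and at 0.26 (−0.18 to 0.66) for DN2a without B02. In the myeloid class of DN1, Runx1 was at 0.23 (−0.02 to 0.48) and Runx3 at 0.72 (0.32 to 1.12). Myeloid cells were too few in DN2b, 4 of ΔTE and 10 of WT, to read Runx genes there. How far the marker classes and the genotype each carry the differences was not tested beyond these values.

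Runx1 is known to act on Bcl11b in T cell progenitors, so cells with and without a Bcl11b UMI were compared inside each library. Cells with such a UMI over cells without gave log2 Runx1 values of 0.30 (0.21 to 0.38), 0.17 (0.12 to 0.23) and 0.18 (0.10 to 0.27) in WT. They were 0.11 (−0.04 to 0.27), 0.38 (0.29 to 0.46) and 0.45 (0.31 to 0.60) in ΔTE. Runx1 was higher beside Bcl11b in 6 of 6 libraries, with an interval that includes 0 in ΔTE of the DN1 start, and at 0.29 (0.19 to 0.38) in ΔTE of the DN2a start without B02. Runx2 was lower beside Bcl11b in 6 of 6 libraries, at −0.03 (−0.28 to 0.22), −0.24 (−0.42 to −0.07) and −0.02 (−0.30 to 0.25) in WT. In ΔTE, Runx2 was at −0.53 (−1.07 to −0.04), −0.20 (−0.52 to 0.10) and −0.07 (−0.54 to 0.37), and at −0.28 (−0.64 to 0.07) for DN2a without B02, so only 2 of these library intervals leave out 0. Cbfb showed no common direction, from −0.20 (−0.60 to 0.18) in ΔTE of the DN2b start to 0.19 (0.03 to 0.34) in WT of the DN2a start. Runx3 showed none either, from −0.27 (−0.45 to −0.08) in WT of the DN1 start to 0.18 (0.06 to 0.29) in WT of the DN2a start, and at −0.39 (−0.58 to −0.21) in ΔTE of the DN2a start without B02. Cells with a Bcl11b UMI were deeper, with a median of 441 to 567.5 UMIs against 375 to 482, and a cell without one may still express the gene.

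Of 29 genes for proteins that work with Runx factors, such as Ets factors, coactivators and corepressors, 25 had at least 100 UMIs in the DN1 comparison. Of these, 0 were past 1.2-fold higher, where 8.37% of all genes were, and 1, Smad3, lower, where 8.7% were. For DN2a, 0 of 28 were higher (8.83% of all genes) and Tle1, Tle2 and Cebpa lower (15.2%). For DN2b, of 24, Ets1 was higher (16.5% of all genes) and Tle1 and Hipk2 lower (15.4%). The intervals of Tle2 and Cebpa in DN2a and of Hipk2 in DN2b included 0. Without B02, the DN2a start had 2 of 27 higher (10.7% of all genes) and 5 lower (22.6%). The list medians were 0.01, −0.05 and −0.04, beside 0.00, −0.01 and 0.01 for all genes, and the DN2a median was 0.04 without B02. Cdk6, a cell cycle kinase that binds Runx1, was at 0.04 (0.00 to 0.08), −0.10 (−0.13 to −0.07) and −0.22 (−0.28 to −0.15), and at 0.00 for DN2a without B02, so its lower DN2a value rested on that well. Myb, a progenitor transcription factor, was at 0.08 (0.01 to 0.15), −0.03 (−0.08 to 0.02) and −0.01 (−0.10 to 0.09), and at 0.04 for DN2a without B02. Tle1, a Groucho corepressor picked after its values were seen, was at −0.24 (−0.55 to 0.07), −0.75 (−1.07 to −0.44) and −0.76 (−1.42 to −0.14), and at −0.69 for DN2a without B02.

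Of 20 known Runx targets in blood cells, only 8, 8 and 4 had enough UMIs for DN1, DN2a and DN2b, and 2, 2 and 1 were past 1.2-fold higher and 3, 4 and 1 lower. Of all genes, 8.37%, 8.83% and 16.5% were higher and 8.7%, 15.2% and 15.4% lower. Without B02, 2 of 7 were higher and 2 lower for DN2a, where 10.7% and 22.6% of all genes were. With all wells, the higher ones were Csf1r and Itgae, then Gfi1b and Itgae, then Itgae. The lower ones were Bcl11b, Mpo and Gfi1, then Bcl11b, Spi1, Mpo and Cebpa, then Bcl11b. Bcl11b is the gene whose enhancer was deleted, so its place among the lower genes was given by the design. The intervals of Csf1r and Gfi1 in DN1 and of Spi1, Mpo and Cebpa in DN2a included 0. Itgae, the integrin αE chain (CD103) and a target that Runx3 is known to act on in CD8 T cells, had the same direction as Runx3. Its level was 15.5, 30.2 and 107 CPM in WT and 36.9, 89.4 and 189 CPM in ΔTE, each in the order DN1, DN2a, DN2b. ΔTE over WT was at log2 1.25 (0.85 to 1.67), 1.56 (1.33 to 1.80) and 0.83 (0.56 to 1.09), and 1.64 for DN2a without B02. Besides Itgae, Bcl11b was the other gene of this list past 1.2-fold in all 3 starts, lower in each. Itgal, the αL chain of the integrin LFA-1, was at −0.20 (−0.31 to −0.08), 0.04 (−0.06 to 0.14) and 0.13 (−0.06 to 0.32), and at 0.01 for DN2a without B02. Cd4, a gene silenced by Runx factors in early thymocytes, had 1 UMI in all 6 libraries.

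Among bone targets of Runx2, Col1a1 and Col1a2, which encode the chains of type I collagen, were past 1.2-fold lower in all 3 starts. Col1a1 was at −1.003 (−1.24 to −0.77), −0.59 (−0.69 to −0.50) and −0.97 (−1.31 to −0.64), and Col1a2 at −0.84 (−1.02 to −0.65), −0.71 (−0.79 to −0.64) and −1.34 (−1.64 to −1.05). Both are also on the stromal marker list, so they repeat the lower stromal marker RNA of ΔTE. Without B02 they were at −2.09 and −2.06 for DN2a. The bone genes Sp7, Ibsp, Bglap and Bglap2 had at most 2 UMIs in any comparison.

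The genes whose levels over the 6 libraries were most like those of each member were sought among 3666 genes with at least 100 UMIs in every library, by the root mean square difference of centred log2 levels. For Runx1 they were Oga (0.031), Ccm2 (0.051) and Plekha7 (0.053). Oga, which encodes the enzyme that removes O-GlcNAc from proteins, stood at 172, 181 and 190.3 CPM in WT and 139.9, 161 and 138 CPM in ΔTE. For Runx2 they were Mndal (0.061), Scmh1 (0.076) and Asap1 (0.079), and for Runx3 Cdc14a (0.091), Aven (0.096) and Btbd1 (0.100). For Cbfb, which varied least, they were Mast2 (0.019), Atp5c1 (0.021) and Sipa1l1 (0.028). The likeness rests on 6 points.

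The 3 Runx genes, of which Runx1 and Runx2 were lower and Runx3 higher in ΔTE, share a sequence at their promoters. RefSeq windows of 300 bases on GRCm38.p6, from 250 before to 50 after a gene start, were searched for the Runx motif ACCACA on both strands (TGTGGT on the other). The 4 genes had 6 windows, and the motif and its pairing were chosen after the sequences were seen. The motif was in 16.8% of all 32851 windows. The longest run of letters shared by a window of each Runx gene had 18 bases and held the motif as a pair, ACCACAGAACCACA, found in 4 windows (0.0122%) of all genes. The 4th belonged to Gm16225, which overlaps that of Runx3. The stretches below are on the strand of each gene, 5′ to 3′, with the motifs in capitals. They lie at chr16:92826025-92826054 (minus), chr17:44814583-44814612 (minus) and chr4:135120503-135120532 (plus).
Runx1: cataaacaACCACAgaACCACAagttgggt
Runx2: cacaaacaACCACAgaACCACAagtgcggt
Runx3: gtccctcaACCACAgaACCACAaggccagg
The pair began at base 29 of the transcript for Runx1 and base 24 for Runx2, and 134 bases before the start for Runx3. The second windows of Runx1 and Runx3 and the window of Cbfb held no match. A match is a description of letters, not of a bound site or a cause, and gene-level UMIs cannot tell the promoters of a gene apart.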

How the data were processed

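The 6 libraries were sequenced by sci-RNA-seq3, and the labels name nuclear RNA as the molecule. The authors gave UMI totals per gene and barcode as the deposited count tables, not normalized and not filtered for cells. The submitters' processing notes name genome build mm9. The aligner and whether strand was used are not given in the sources used here. The count tables carry no coordinates, so the Ensembl identifiers were looked up in GENCODE M21 (GRCm38), and promoter sequences were taken from RefSeq GRCm38.p6.

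The limits of the study on a cell, 200 genes or more, 2000 UMIs or fewer and no more than 30% mitochondrial UMIs, left 60671 cells. The study reports more cells, so its set of cells was not reproduced. No doublet caller was run, and the limit of 2000 UMIs stood in for one. No barcode was shared in any of 15 pairs of libraries. UMIs were summed per library and well with Python 3.11.15, numpy 2.4.6 and pandas 2.3.3, plotted with matplotlib 3.10.9, and scaled to a common total of non-mitochondrial UMIs. Intervals came from scipy 1.17.1: exact Poisson for levels, conditional binomial for ratios, the conditional odds ratio for Runx3 against Runx1, and Clopper-Pearson for shares. TMM factors came from edgeR 4.0.16 in R 4.3.3. The average over starts was tested on TMM-scaled library sums with start and genotype as terms, by edgeR's quasi-likelihood test with Benjamini-Hochberg adjustment at 0.05, and with DESeq2 1.42.0 as the alternative. That test was not planned and was chosen after seeing the data. Its standard errors are the log2 value divided by the square root of F. Differences are called past 1.2-fold among genes with at least 100 UMIs over both libraries. The ratio, the interval and the fit were tested on simulated data.

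The members and lists were chosen with earlier results of these data known. Beside the members and Bcl11b, named genes were the 3 nearest genes of each member, the genes of each list past 1.2-fold in 1 direction in all 3 starts (at most 6), and the 2 genes of each list with the most UMIs. Supt3, for its overlap with Runx2, and further list genes were named after their values were seen. Alternatives were other totals, mitochondrial, gene and UMI limits, a mean over cells, subsets of cells, a gate of 3 marker UMIs, other UMI minimums and leaving out each well, and for the fit other totals, DESeq2, leaving out B02 and leaving out each start.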

Additional observations from a re-analysis of the deposited data

How the results depend on the processing

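Values are log2 ratios, ΔTE over WT for a named start unless DN2b over DN1 is said. With at most 10% mitochondrial UMIs, 100 to 7262 cells per library were left, and 2 differences past 1.2-fold turned: Runx1 in DN1 to 0.17 and Runx3 in DN2b to −0.76. Runx1 was −0.65 in DN2a and −1.07 in DN2b, Runx3 0.81 in DN1 and 0.39 in DN2a, and Cbfb −0.50 in DN1 and −0.63 in DN2b. DN2b over DN1 was 0.36 for Runx1, −0.26 for Runx2 and −0.21 for Runx3 in WT, and −0.88, −1.79 and −0.24 for Runx1, Runx3 and Cbfb in ΔTE. The sign of Cbfb turned in DN2b and for DN2b over DN1 in ΔTE and in WT (−0.11). Runx3 to Runx1 was 1.04 in DN2a and 0.31 in DN2b. Runx2 had 0 UMIs in ΔTE of the DN2b start at this limit, so it has no value there. With at most 20%, Runx1 was −0.43 in DN2a and −0.66 in DN2b, Runx2 −0.55 and Cbfb −0.080 in DN2a, Runx1 of ΔTE −0.24 for DN2b over DN1, and Runx3 to Runx1 0.49 in DN1 and 0.87 in DN2a. Without a limit, Runx2 and Runx3 in DN2a were −0.15 and 0.43, Runx1 in DN2b −0.42, and DN2b over DN1 0.12 for Runx1 and −0.18 for Runx2 in WT and −0.56 for Runx3 in ΔTE.

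On the total of all UMIs, the DN2a values were −0.38 for Runx1, −0.52 for Runx2, 0.38 for Runx3 and −0.089 for Cbfb, with 430 genes past 1.2-fold higher and 2632 lower. With at least 300 genes, Runx1 in DN2a was −0.21, and in cells with 0 stromal marker UMIs −0.31. In cells of no class, Runx3 in DN2b was 0.064, Runx1 of ΔTE for DN2b over DN1 0.051 and Runx3 to Runx1 in DN2b 0.49. A gate of 3 marker UMIs gave, over cells of no class, 0.31, −1.27 and −0.25 for Runx1 in the T, stromal and Cpa3 classes, 0.67 and 0.10 for Runx2 in the myeloid and Cpa3 classes, and −0.32 for Runx3 in the myeloid class.

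These alternatives were added after seeing the data. Without B02, Runx1 in stroma over no class was −1.10, and in cells of no class Runx1 and Runx2 in DN2a were −0.12 and −0.15. In cells with a Bcl11b UMI, Runx1 was −0.42, −0.066 and −0.28 in DN1, DN2a and DN2b, Runx2 −0.89 in DN1, Runx3 0.45 and 0.14 in DN1 and DN2a, and Cbfb −0.23 and −0.21 in DN2a and DN2b. DN2b over DN1 was 0.048 for Runx1 and −0.082 for Runx3 in WT, and 0.18 for Runx1 and 0.25 for Runx2 in ΔTE. Runx3 to Runx1 was 0.87, 0.21 and 0.48. In cells with 0 Bcl11b UMIs, Runx1 of ΔTE for DN2b over DN1 was −0.16 and Runx3 to Runx1 in DN2a 0.84.

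The test of the average over starts, also added after seeing the data, called Runx1, Runx2 and Runx3 and not Cbfb in every setting but 1. Without B02, the adjusted p of Runx1 was 0.412 and it was not called. Leaving out each start in turn gave adjusted p of at most 0.0304, 0.0138 and 0.0144 for Runx1, Runx2 and Runx3. Without the DN1 or the DN2b start, only the spread of all genes entered the fit, not that of the gene itself. The test called 371 genes higher and 503 lower, against 232 and 657 on the total of all UMIs, 97 and 115 with DESeq2, 176 and 357 without B02, and 153 to 357 and 180 to 532 with a start left out.

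Counts of genes past 1.2-fold, higher and lower, differed over 1.5-fold with the minimum of UMIs. With a minimum of 500 UMIs they were 179 and 165 of 4856 (DN1), 360 and 461 of 5987 (DN2a), 212 and 186 of 1837 (DN2b), 575 and 851 of 3829 (DN2b over DN1 in WT) and 613 and 860 of 3414 (DN2b over DN1 in ΔTE). With no minimum beyond 1 UMI in each library they were 2529 and 2911 of 14792 (DN1), 2963 and 3750 of 15364 (DN2a), 3348 and 3471 of 12963 (DN2b), 4003 and 3860 of 14014 (DN2b over DN1 in WT) and 4016 and 3904 of 13298 (DN2b over DN1 in ΔTE).

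Leaving out each well in turn gave ranges in DN1, DN2a and DN2b of −0.32 to −0.23, −0.49 to −0.040 and −0.60 to −0.37 for Runx1. They were −0.44 to −0.35, −0.41 to −0.37 and −0.38 to −0.20 for Runx2, 0.26 to 0.37, 0.37 to 0.64 and 0.13 to 0.37 for Runx3, and −0.14 to −0.038, −0.047 to 0.11 and −0.055 to 0.13 for Cbfb. Runx3 to Runx1 ran from 0.52 to 0.68, 0.68 to 0.85 and 0.67 to 0.87. For DN2b over DN1, the ranges of Runx1, Runx2, Runx3 and Cbfb were 0.14 to 0.23, −0.38 to −0.23, −0.47 to −0.23 and −0.097 to 0.087 in WT, and −0.14 to 0.080, −0.30 to −0.11, −0.48 to −0.37 and 0.070 to 0.18 in ΔTE. The cause of these dependences was not tested.

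No paired analysis was possible because the labels carry no replicate number shared between conditions, and start alone was used as a block, in the added test. Mice were pooled per genotype, so the libraries of a genotype share a source and no p value covers the spread between pools. Genotype, culture and library cannot be told apart. Intervals cover counting error only, and differences between cultures of the same kind are not known. Marker classes rest on few UMIs and hold cells of other kinds, and 63.7% of cells have no class. The strand used in counting is not known, which bears on Runx2 and Supt3.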
